A study of Mus musculus with 16 samples.

Results

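Nt5c1a, Slit1 and Gm10129 are 3 genes whose transcripts were lower in footpad epidermis of mice fed an AhR-poor diet than of mice fed the same diet with indole-3-carbinol (I3C), after injection of the protease allergen papain. They were selected on the measured values of that comparison, from the deposited table of 50600 gene identifiers. Among the 22155 genes tested, 22 (0.0993%) were called lower on the AhR-poor diet with papain, against 1583 (7.15%) called higher, and 11 of the 22 had a mean of at least 1 CPM (the count relative to the library size, after TMM scaling). The 3 genes had the largest falls among those 11. Because the papain libraries chose them, the diet difference with papain and the papain responses are given as descriptions without a test. For the 3 genes only the diet difference with vehicle was tested. The choice did not use that difference, although the vehicle libraries entered the fit and the mean CPM behind the choice.

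The 16 libraries each came from the footpad epidermal cells of a separate female C57/B6J mouse, with 4 mice in each of 4 groups. From 5 wk of age the mice received for 3 wk the purified AIN-93M diet, naturally poor in ligands of the aryl hydrocarbon receptor (AhR), either as such (AhR-poor diet, SYNTH in the labels) or with 200 ppm of I3C (I3C diet). The footpad was injected with 50 μl of PBS alone (vehicle) or with 50 μg of papain in it, and epidermal cells were isolated 6 hr later. The labels name no engineered allele, and all 4 groups ate the purified diet, so normal chow is not among them. Mice of the same diet shared a cage, and therefore diet and cage cannot be told apart.

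AhR is a transcription factor activated by small molecules, among them products that form from dietary I3C in the stomach, and it binds DNA at sites with the core GCGTG to induce genes such as Cyp1a1. Nt5c1a encodes a cytosolic 5′-nucleotidase that removes the phosphate from AMP to give adenosine, and it is best known from skeletal and cardiac muscle. Slit1 encodes a secreted ligand of the Robo receptors, a family known for repelling growing axons and migrating cells. Gm10129 has no assigned function. Its GENCODE class is TEC, used for transcribed regions whose gene status still has to be tested by experiment.

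In the GENCODE M21 annotation of GRCm38, Nt5c1a (ENSMUSG00000054958) lies on the plus strand at chr4:123201504-123216275, with 6 exons that hold 1220 bases. Slit1 (ENSMUSG00000025020) lies on the minus strand at chr19:41600257-41743665, with 5921 exonic bases in 36 blocks. Neither shares an exonic base with another gene. Gm10129 (ENSMUSG00000103789) is a single exon of 1316 bases on the minus strand at chr13:38150477-38151792, antisense to the start of Dsp. Dsp encodes desmoplakin, which links the desmosomes of keratinocytes to their keratin filaments. Of the exon of Gm10129, 499 bases (37.9%) lie over the first exon of Dsp and 817 bases lie before the Dsp start. Whether reads were counted by strand is not given in the sources used here, so reads of Gm10129 and of Dsp cannot be told apart over the shared bases.

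The bases before the start of a gene are shown for Nt5c1a and for Dsp, whose window lies wholly within the Gm10129 exon on the opposite strand, because the diets differ in AhR ligands. Both are RefSeq sequences of GRCm38.p6, read on the plus strand, at chr4:123201235-123201484 and chr13:38151044-38151293. Capitals mark the AhR core, GCGTG on this strand or CACGC when it stands on the other strand.
Nt5c1a: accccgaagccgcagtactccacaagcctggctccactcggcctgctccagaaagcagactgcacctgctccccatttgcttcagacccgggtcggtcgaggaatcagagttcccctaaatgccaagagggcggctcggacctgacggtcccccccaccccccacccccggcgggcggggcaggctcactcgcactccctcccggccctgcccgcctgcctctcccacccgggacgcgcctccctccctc
Dsp: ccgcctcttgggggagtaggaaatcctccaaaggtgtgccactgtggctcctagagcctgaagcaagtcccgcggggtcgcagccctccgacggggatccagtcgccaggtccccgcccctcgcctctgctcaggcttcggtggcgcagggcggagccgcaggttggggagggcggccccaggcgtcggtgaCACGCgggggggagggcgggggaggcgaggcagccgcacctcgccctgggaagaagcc
No match was found in the 250 bases of Nt5c1a. The Dsp window held 1 match, read on the opposite strand, that begins at -58 from the start. Of 32817 such windows of mouse genes, 9235 (28.14%) held at least 1 match, and a match is a description of the letters and not a binding site.

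**Figure D1:**
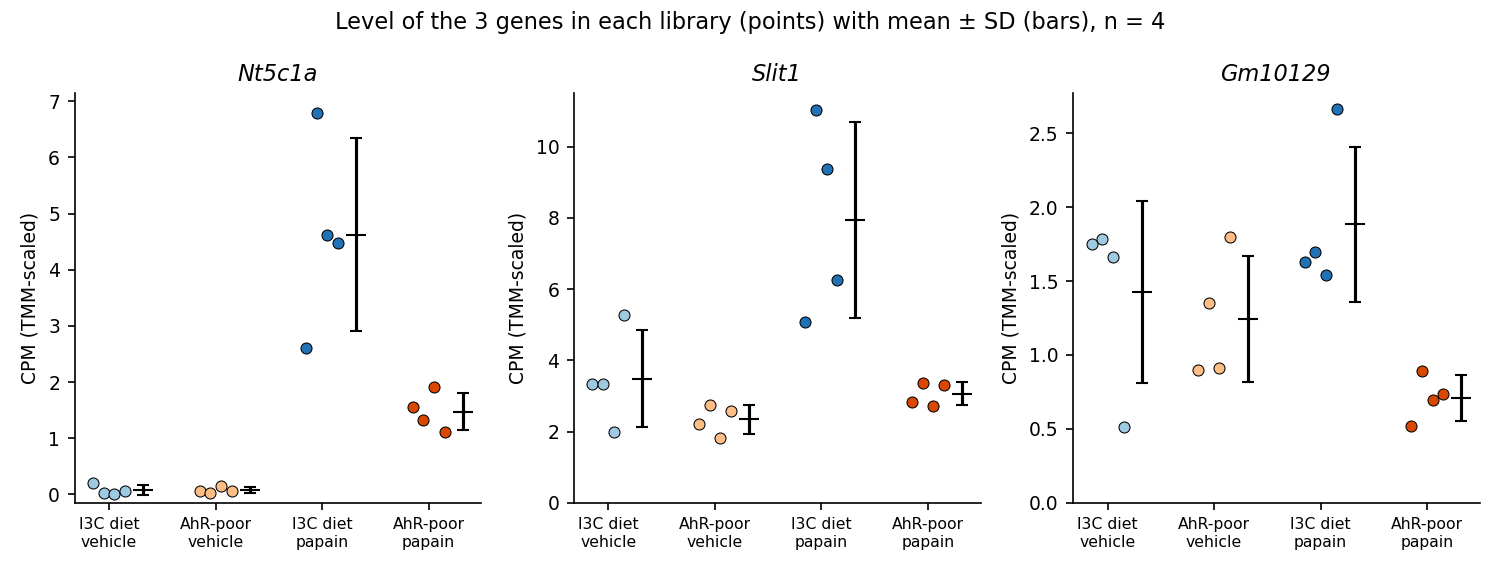
TMM-scaled CPM of Nt5c1a, Slit1 and Gm10129 in each of the 16 libraries (points), by diet and injection, with the mean and SD of each group of 4 (bars). Nt5c1a lies at or below 0.201 CPM in every vehicle library, and in each panel the 4 libraries of the AhR-poor diet with papain lie below the 4 of the I3C diet with papain.

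Nt5c1a was nearly undetected without papain and reached its highest level after papain on the I3C diet. With vehicle, the I3C libraries held 7, 1, 0 and 2 counts (0.201, 0.0255, 0 and 0.0600 CPM), and the AhR-poor libraries 2, 1, 6 and 2 counts (0.0545, 0.0265, 0.148 and 0.0536 CPM). In both groups 3 of 4 libraries were at or under the floor of 3 counts, which equals 0.0569 to 0.130 CPM depending on the library and covers counting error only. With papain, the I3C libraries held 2.61, 6.80, 4.62 and 4.48 CPM (mean 4.63 ± 1.71, SD, n = 4). The AhR-poor libraries with papain held 1.55, 1.33, 1.90 and 1.11 CPM (mean 1.47 ± 0.337, SD, n = 4). All 8 papain libraries were above all 8 vehicle libraries, and the lowest I3C library with papain was above the highest AhR-poor one.

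The fitted difference of Nt5c1a between the diets with papain was -1.66 on the log2 scale (SE 0.35), a level 3.15-fold lower on the AhR-poor diet. The log2 rise from vehicle to papain was 5.98 (SE 0.51) on the I3C diet and 4.28 (SE 0.52) on the AhR-poor diet. These 2 responses rest on few vehicle counts, so the ratio of the summed counts is given with its 95% Poisson interval, which covers counting error only. On the I3C diet 661 counts with papain against 10 with vehicle gave a ratio of 64.6 (34.9 to 135), which became 163 (55.6 to 794) without library T108 with its 7 counts. On the AhR-poor diet 218 against 11 counts gave 19.7 (10.8 to 40.0), and 31.8 (13.4 to 98.9) without library T102 with its 6 counts.

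Slit1 was present in every library and stood highest after papain on the I3C diet. With vehicle, it measured 3.33, 3.34, 1.99 and 5.28 CPM on the I3C diet (mean 3.48 ± 1.36, SD, n = 4) and 2.21, 2.75, 1.83 and 2.57 CPM on the AhR-poor diet (mean 2.34 ± 0.410, SD, n = 4). These groups overlapped, since 1 I3C library was lower than 3 of the AhR-poor ones. With papain, it measured 5.07, 11.03, 9.36 and 6.27 CPM on the I3C diet (mean 7.93 ± 2.75, SD, n = 4). The AhR-poor libraries with papain measured 2.83, 3.38, 2.73 and 3.32 CPM (mean 3.06 ± 0.332, SD, n = 4), all of them below the I3C ones and close to each other.

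The fitted log2 difference of Slit1 between the diets with papain was -1.36 (SE 0.26), a level 2.57-fold lower on the AhR-poor diet. The change of Slit1 from vehicle to papain was 1.19 (SE 0.26) on the log2 scale on the I3C diet and 0.39 (SE 0.27) on the AhR-poor diet. With libraries scaled to the summed counts of keratinocyte markers, the latter was 0.77, beside a median of 0.38 over all genes under that scaling.

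Gm10129 was lower with papain than with vehicle on the AhR-poor diet, where the means of the other 2 genes were higher with papain. With vehicle, it measured 1.75, 1.78, 1.66 and 0.510 CPM on the I3C diet (mean 1.43 ± 0.613, SD, n = 4) and 0.899, 1.35, 0.915 and 1.80 CPM on the AhR-poor diet (mean 1.24 ± 0.426, SD, n = 4), and the groups overlapped. With papain, it measured 1.63, 1.70, 1.54 and 2.66 CPM on the I3C diet (mean 1.88 ± 0.522, SD, n = 4) and 0.517, 0.891, 0.692 and 0.734 CPM on the AhR-poor diet (mean 0.709 ± 0.154, SD, n = 4). The 4 AhR-poor libraries with papain lay below the 4 I3C libraries with papain and also below the 4 AhR-poor libraries with vehicle. The values rest on few reads, down to 16 counts in the library with the fewest.

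The fitted log2 difference of Gm10129 between the diets with papain was -1.40 (SE 0.34), a level 2.64-fold lower on the AhR-poor diet. The log2 change from vehicle to papain was -0.79 (SE 0.35) on the AhR-poor diet and 0.40 (SE 0.32) on the I3C diet.

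**Figure D2:**
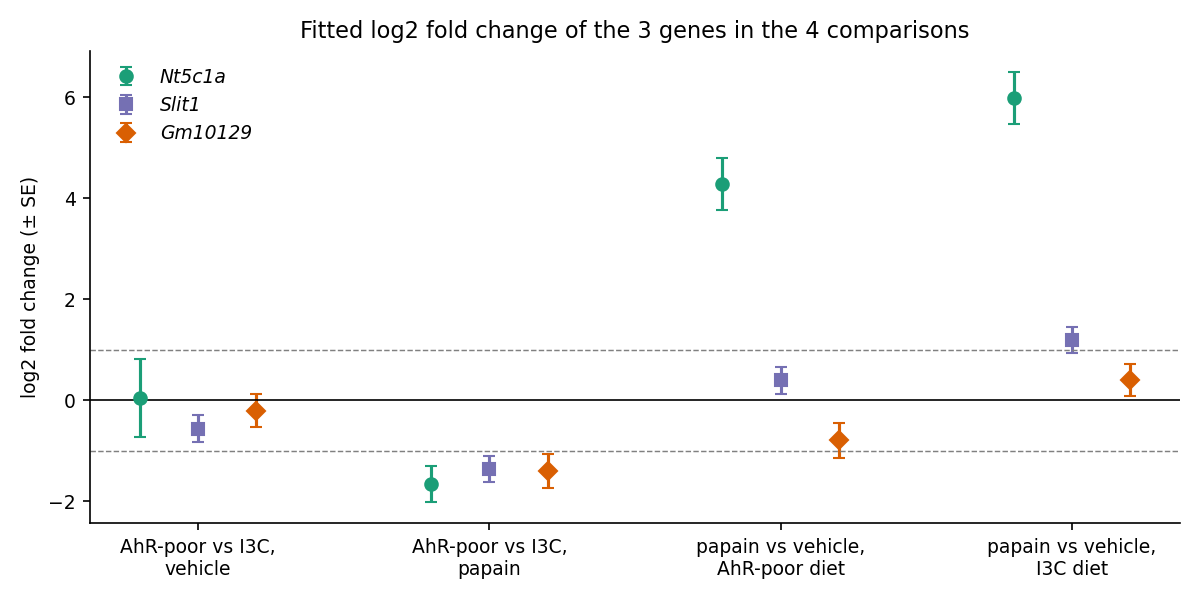
Fitted log2 fold change (± SE, n = 4 libraries in each group) of Nt5c1a, Slit1 and Gm10129 for the AhR-poor minus the I3C diet (vehicle, then papain) and for papain minus vehicle on each diet. Dashed lines mark log2 fold changes of -1 and 1. All 3 genes lie below -1 for diet with papain, which is how they were chosen, and between -0.57 and 0.04 for diet with vehicle.

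To ask whether these genes also differed between the diets without papain, the vehicle libraries were tested with the quasi-likelihood F test of edgeR over all 22155 genes. An exact permutation test (two-sided, on log2 CPM) was run beside it, and 0.0286 is the smallest p that it can give for groups of 4. None of the 3 was called lower with vehicle, where 0 (0%) of all tested genes were called lower and 352 (1.59%) higher. Genes with log2 fold changes below -1 and an unadjusted p below 0.05 in edgeR numbered 151, and DESeq2 called 6 genes lower at the thresholds used here. Slit1 was 0.57 lower on the log2 scale (95% interval -1.13 to -0.01), with an edgeR adjusted p of 0.385 and an exact permutation p of 0.171. This value rested in part on single libraries, being -0.30 (SE 0.25) without T111 and -0.78 (SE 0.25) without T110, with edgeR adjusted p of 0.636 and 0.139. For Gm10129 the log2 difference was -0.21 (95% interval -0.90 to 0.48), with an edgeR adjusted p of 0.893 and an exact permutation p of 0.829. For Nt5c1a it was 0.04 (95% interval -1.59 to 1.68), with an edgeR adjusted p of 0.997 and an exact permutation p of 0.8. Its sign turned negative without library T109, T110, T111 or T102. With 10 and 11 counts over the 2 groups, a difference of Nt5c1a within this wide interval was not detectable at this depth. Whether the diet difference itself differed between papain and vehicle was not tested, because the papain libraries chose the genes.

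The place of the 3 genes among the 22 depended on how libraries were scaled and on single libraries. With libraries scaled to keratinocyte marker counts, 2 genes (Pde1c and Slit1) passed the thresholds in place of 22, and Nt5c1a (-1.48) and Gm10129 (-1.23) did not, beside a median log2 difference of 0.20 over all genes under that scaling. Of 16 fits that each left out 1 library, Slit1 passed in 16, Nt5c1a in 15 (not without T113) and Gm10129 in 11 (not without T113, T115, T104, T107 or T112). The log2 difference stayed below -1 in all of these fits, between -1.85 and -1.40 for Nt5c1a, -1.52 and -1.15 for Slit1, and -1.56 and -1.18 for Gm10129. Just inside the rule, among genes of at least 1 CPM, stood Farp2 with a log2 difference of -1.01. Just outside it stood Alox8 at -0.99, and Uox with a larger difference of -1.76 and an adjusted p of 0.0198.

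**Figure D3:**
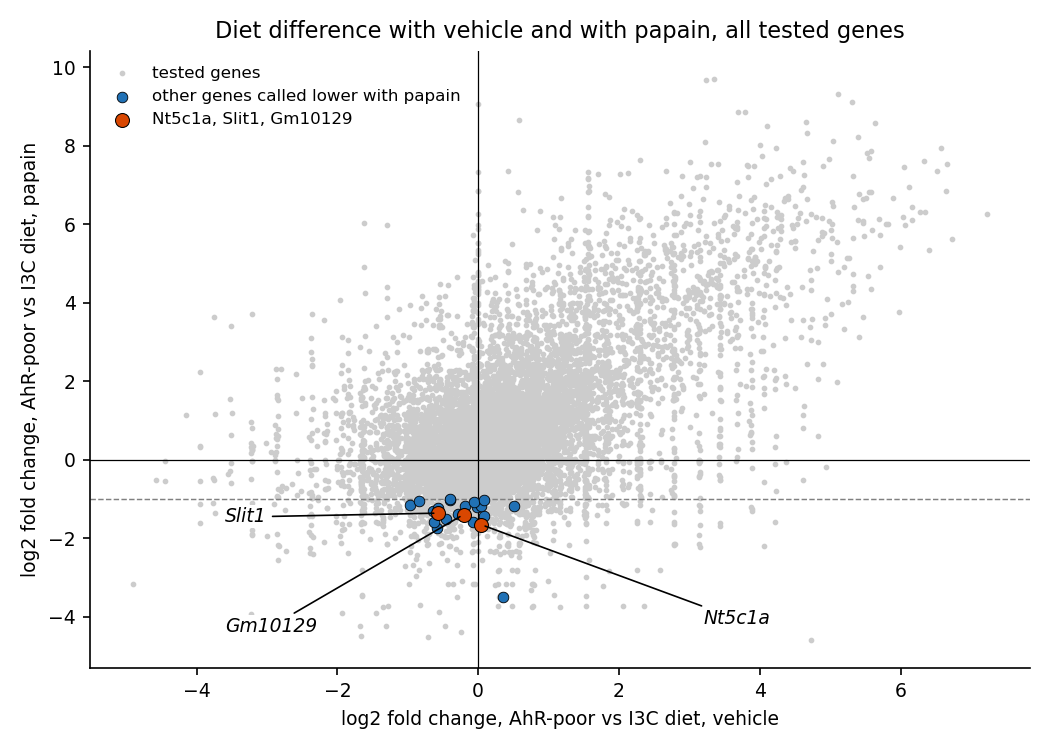
Log2 fold change between the diets, AhR-poor minus I3C, after vehicle (x axis) and after papain (y axis) for the 22155 tested genes (grey), the 19 other genes called lower with papain (blue) and Nt5c1a, Slit1 and Gm10129 (orange), each axis from 4 libraries against 4. The 22 genes lie under the dashed line at -1 on the y axis by choice, and 16 of them lie left of 0 on the x axis.

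Over the 19 other genes called lower with papain, the fitted log2 difference with papain ranged from -3.49 to -1.01. With vehicle, 14 of the 19 were below 0, with a median of -0.29, against 52.1% of all tested genes and a median of -0.01. Of the 19, 3 had an unadjusted p below 0.05 with vehicle and 0 an adjusted p below 0.01 in edgeR, the lowest being 0.0128 for Ikzf4, a zinc finger transcription factor, at -0.83. A log2 change above 0 with papain on the I3C diet, as in all 3 genes, was fitted in 17 of the 19, and on the AhR-poor diet in 8. Over all tested genes, 53.4% were below 0 on the I3C diet and 50.3% on the AhR-poor diet. These comparisons share the papain libraries, and the rise on the I3C diet uses the libraries that had to be high for a gene to be chosen.

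Those of at least 1 CPM beside the 3 genes were Gm38257, Igf2bp1, Pla2g4d, Pde1c, Ikzf4, Rsg1, B4galnt3 and Farp2. Igf2bp1, which encodes an RNA-binding protein, had the largest fitted responses to papain of the 22 after Nt5c1a, at log2 values of 5.32 on the I3C diet and 4.14 on the AhR-poor diet. Like Gm10129, 11 of the 19 were not protein coding, whereas 72.7% of all tested genes were. Of the 8 named above with at least 1 CPM, 1 was not protein coding (Gm38257).

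Gm10129 and Dsp were high and low in many of the same libraries. Dsp measured 6157, 6009, 6329 and 4733 CPM with vehicle on the I3C diet and 4201, 5698, 5289 and 6895 CPM with vehicle on the AhR-poor diet. With papain it measured 6617, 6527, 6844 and 7898 CPM on the I3C diet and 3503, 5092, 4630 and 4874 CPM on the AhR-poor diet, and these last groups did not overlap. The library with the least Gm10129 among the I3C vehicle libraries (T111) also had the least Dsp there, and the library with the most Gm10129 of all (T115) had the most Dsp of all. Over the 16 libraries Pearson's r of log2 CPM was 0.92 and Spearman's rho 0.86, as a description, since both genes share bases, libraries and groups. Dsp was not among the 5 genes most like Gm10129, which had r of 0.96 to 0.97 with it. Those 5 were picked as the highest of 13025, and how common an r like that of Dsp is was not counted. The r with Dsp was 0.14 for Nt5c1a and 0.45 for Slit1.

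**Figure D4:**
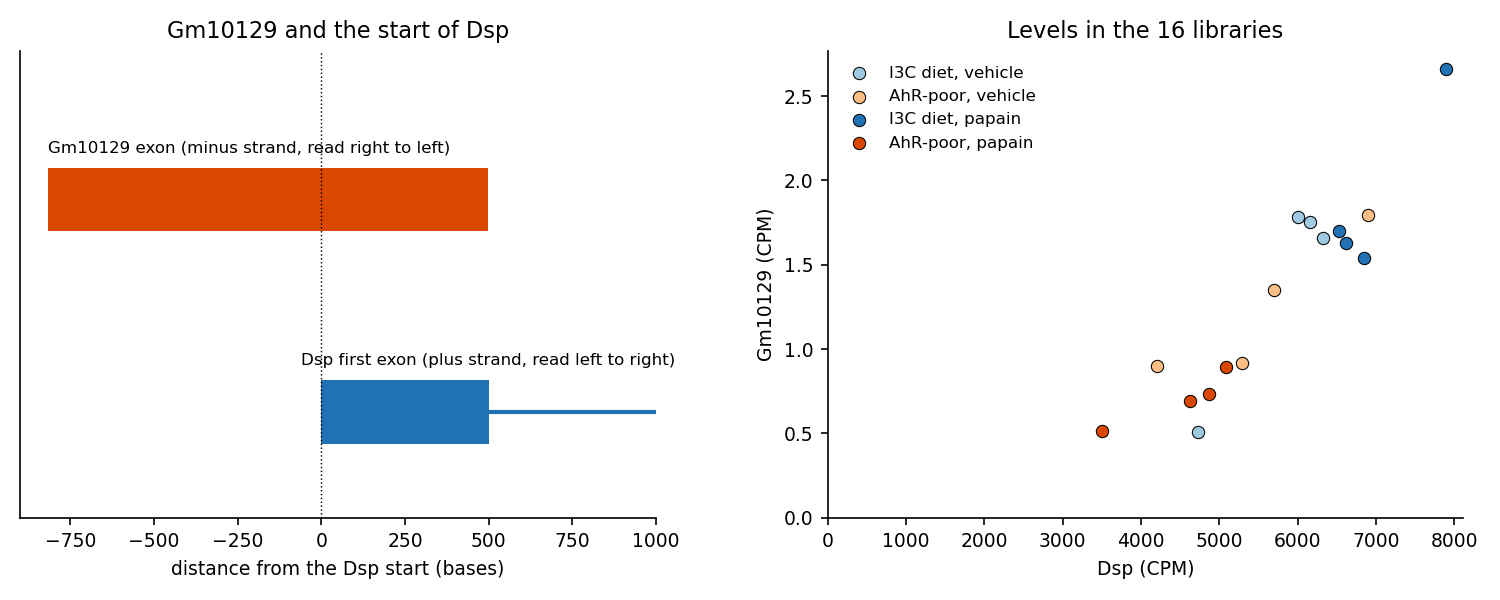
Left, the exon of Gm10129 (orange, minus strand) and the first exon of Dsp (blue, plus strand) by distance in bases from the Dsp start, over which they share 499 bases. Right, CPM of Gm10129 against CPM of Dsp in the 16 libraries, coloured by group, where the libraries low in one are low in the other.

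The log2 difference of Dsp between the diets with papain was -0.62 (SE 0.14), which is smaller than that of Gm10129 and is given without a test because Gm10129 shares its bases and was chosen on this comparison. With vehicle it was -0.07 (SE 0.14). Per 10000 counts of Dsp, Gm10129 had 2.38 ± 0.879 counts with vehicle on the I3C diet and 2.21 ± 0.373 on the AhR-poor diet (SD, n = 4 each). The log2 ratio of the diets with vehicle was -0.02, with an exact permutation p of 0.971. With papain it had 2.67 ± 0.486 counts per 10000 of Dsp on the I3C diet and 1.56 ± 0.133 on the AhR-poor diet (SD, n = 4 each). The range was 2.25 to 3.37 on the I3C diet and 1.48 to 1.75 on the AhR-poor diet, so the groups did not overlap for this ratio either, and the log2 ratio was -0.77. Gm10129 was chosen for its gap between these same papain libraries, so the gap in the ratio is not independent of the choice. Whether the lower Gm10129 counts come from reads of Dsp was not tested.

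The likeness of the 3 genes to each other varied by pair. Over the 16 libraries Pearson's r of log2 CPM was 0.69 for Nt5c1a with Slit1, 0.06 for Nt5c1a with Gm10129 and 0.30 for Slit1 with Gm10129. With the mean of each group taken out, r was 0.32, -0.14 and -0.34 in the same order. All 3 genes were chosen for a gap between the same papain groups, which enters the r over the 16 libraries. The genes most like Nt5c1a among 13025 of at least 1 CPM were Uox (r 0.98), Gmppb (0.98), Krt16 (0.98), Arrdc4 (0.98) and Prnp (0.98). Krt16, a keratin of stressed epidermis, measured 184 and 159 CPM with vehicle and 3564 and 2499 CPM with papain, on the I3C and the AhR-poor diet in turn. Uox, the urate oxidase gene, measured 0.121 and 0.129 CPM with vehicle and 11.2 and 3.33 CPM with papain in the same order, all of these being group means.

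The genes most like Slit1 were Gpi1 (r 0.92), Ext2 (0.92), Mib1 (0.91), Ano6 (0.91) and Ddx46 (0.90). Those most like Gm10129 were Pbrm1 (r 0.97), Taok1 (0.97), Kat6a (0.96), Kat6b (0.96) and 9930021J03Rik (0.96), with Pbrm1, Kat6a and Kat6b encoding chromatin regulators. Pbrm1 had group means of 117 and 113.1 CPM with vehicle and 124 and 90.8 CPM with papain, on the I3C and the AhR-poor diet. These likenesses were the highest of many and carry no test.

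Among the relatives of Nt5c1a, 9 other 5′-nucleotidase genes were tested. With vehicle 0 were called in either direction, and on the AhR-poor diet with papain 1 was called higher and 0 lower, beside 7.15% and 0.0993% of all genes. The gene called was Nt5e, which encodes CD73, the ectoenzyme that makes adenosine outside the cell. It had 14.3 CPM on the AhR-poor and 5.71 CPM on the I3C diet (log2 difference 1.32, SE 0.25, edgeR adjusted p 0.00142), the opposite direction to Nt5c1a in these libraries. The median log2 difference of the 9 genes was 0.02 with papain, against 0.01 over all genes. Nt5c1b, the closest relative, was listed at 0 in every library. Per kb of exon, the highest group mean of Nt5c1a (3.79 CPM per kb with papain on the I3C diet) was below that of Nt5c in every group (27.5 to 33.0). It was above Nt5e in that group (3.79 against 0.664 CPM per kb), and in the AhR-poor papain group it was below (1.21 against 1.66), as in both vehicle groups (0.0587 against 2.04 on the I3C diet and 0.0580 against 2.77 on the AhR-poor diet).

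**Figure D5:**
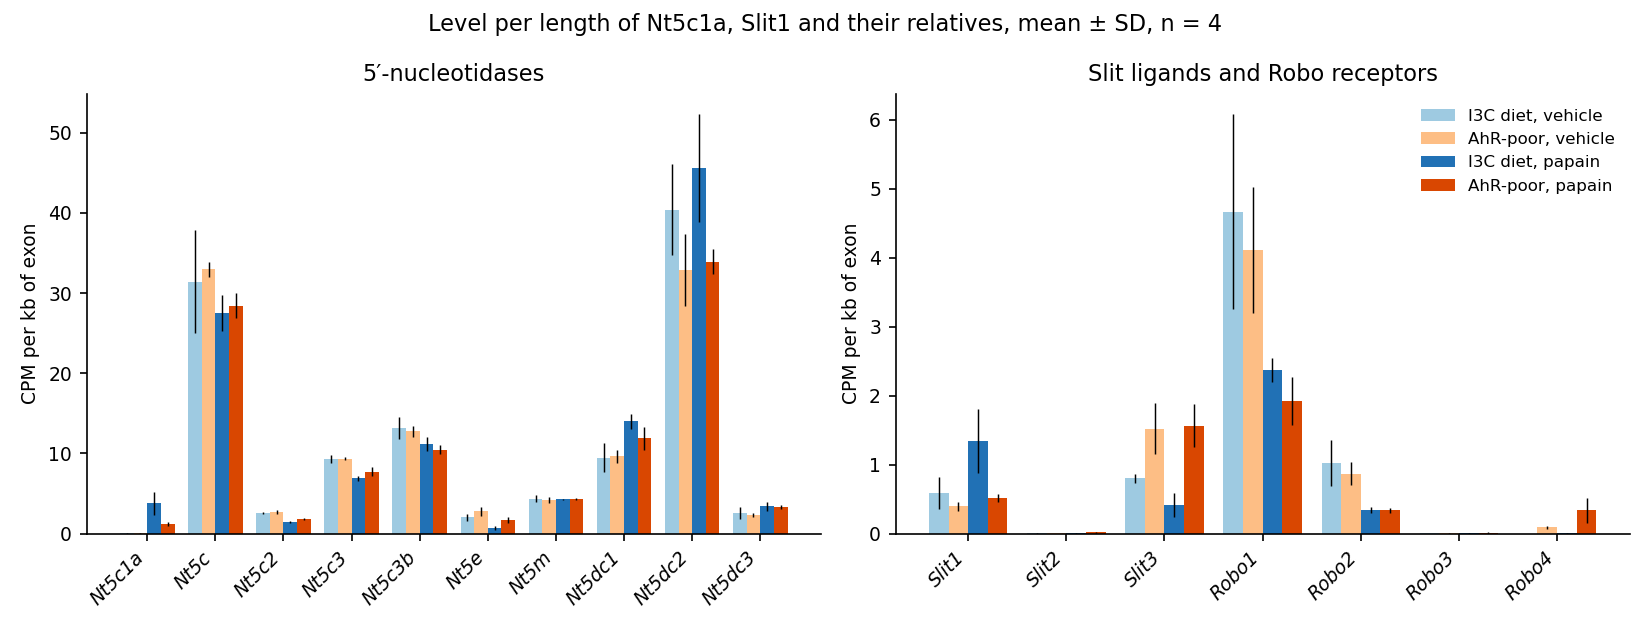
Mean level in CPM per kb of exon (bars, with SD, n = 4) of the 5′-nucleotidase genes (left) and of the Slit and Robo genes (right) in the 4 groups. Nt5c1a is near 0 in both vehicle groups, and with papain Slit1 is higher on the I3C diet where Slit3 is higher on the AhR-poor diet.

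Around Nt5c1a, the genes of the adenosine pathway called by diet were higher on the AhR-poor diet, and 0 were lower, beside 0.0993% of all genes with papain and 0% with vehicle, shares at which lists this short would hold none. Of 18 genes of AMP and adenosine metabolism, 0 were called with vehicle and 3 were called higher with papain, where 7.15% of all genes were. These were Entpd1 (36.2 against 0.911 CPM), which encodes the ATP-degrading ectoenzyme CD39, Alpl (1.58 against 0.130 CPM), the tissue-nonspecific alkaline phosphatase, and Enpp3 (0.977 against 0.0705 CPM), an ectonucleotide pyrophosphatase. Of 11 adenosine receptors and nucleoside transporters, 0 were called with vehicle and 4 higher with papain, namely the transporters Slc28a2 (2.86 against 0.129 CPM) and Slc28a1 and the receptors Adora2a (1.61 against 0.323 CPM) and Adora3 (1.24 against 0.277 CPM). The medians of the 2 lists were -0.04 and 0.62 with vehicle and -0.03 and 0.30 with papain. For papain against vehicle, calls over all genes on the AhR-poor diet were 1338 higher (6.04%) and 536 lower (2.42%), and those on the I3C diet 818 higher (3.69%) and 1171 lower (5.29%). Of the 18 genes of AMP and adenosine metabolism, 2 rose on each diet and 0 fell, and of the 11 receptors and transporters 3 rose on the AhR-poor diet and 1 on the I3C diet, with 0 that fell. Ampd3, an AMP deaminase, rose on both diets, by 1.19 on the AhR-poor and 1.54 on the I3C diet on the log2 scale.

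Among the relatives of Slit1, 6 other Slit and Robo genes were tested, and 0 passed in the lower direction by diet, beside 0% of all genes with vehicle and 0.0993% with papain. With vehicle 1 was called higher on the AhR-poor diet, Robo4, an endothelial receptor, at 0.499 CPM against a listing of 0 in all 4 I3C libraries. With papain 2 were called higher (7.15% of all genes were), Slit3 at 9.51 against 2.52 CPM (log2 difference 1.91, SE 0.23) and Robo4 at 1.79 against 0.0202 CPM. The median of the 6 genes was 0.37 with vehicle and 1.28 with papain. Robo1 and Robo2, receptors that bind Slit1, did not differ by diet past the thresholds (log2 differences with papain -0.30, SE 0.21, and -0.03, SE 0.21). Robo2 fell with papain on both diets, by 1.37 on the AhR-poor and by 1.58 on the I3C diet, and Robo1 was called lower on the AhR-poor diet (-1.10) and fell short of the fold threshold on the I3C diet (-0.97). Per kb of exon, Slit1 had 1.34 CPM per kb with papain on the I3C diet and 0.517 on the AhR-poor diet, and Slit3 had 0.415 and 1.57. The order of the 2 ligands was thus opposite on the 2 diets with papain, where Slit1 was chosen. With vehicle Slit3 was above Slit1 on both, at 0.802 against 0.589 CPM per kb on the I3C diet and 1.52 against 0.395 on the AhR-poor diet.

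Among 22 co-receptors and signalling partners of Slit and Robo, 0 were called with vehicle, where 1.59% of all genes were. With papain 1 of the 22 rose on the AhR-poor diet, where 7.15% of all genes did, a larger share than in this list. A fall was called in 0 of the 22 with papain, beside 0.0993% of all genes. The median of the 22 was -0.01 with vehicle and -0.22 with papain. The gene called was Srgap3, a GTPase-activating protein that binds Robo, at 1.505 against 0.654 CPM. Of 32 other axon guidance ligands, 3 were higher with vehicle and 8 with papain on the AhR-poor diet, and 0 were lower in either, with medians of 0.03 and 0.13. Among these ligands Ntn1, a netrin, had 5.86 against 0.303 CPM with vehicle and 8.29 against 0.438 CPM with papain. Sema3a, which encodes a repellent semaphorin, had 5.68 against 0.0787 CPM with papain.

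The 18 nearest tested genes around the 3 loci, 3 on each side of each gene, included 0 called in either direction in either diet comparison, beside 1.59% (higher) and 0% (lower) of all genes with vehicle and 7.15% and 0.0993% with papain. Their median log2 difference was -0.04 with vehicle and -0.08 with papain. Dsp is among the 18, and its log2 difference of -0.62 with papain, given above without a test, is smaller than the fold threshold. The genes beside Nt5c1a, Hpcal4 and Heyl, had log2 differences with papain of -0.85 (SE 0.50) and 2.10 (SE 0.87), at 0.204 against 0.348 CPM and 0.123 against 0.0293 CPM. In the papain responses, 1 of the 18 was called higher on each diet, beside 6.04% of all genes on the AhR-poor and 3.69% on the I3C diet. On the I3C diet 1 was called lower, beside 5.29% of all genes. The gene called higher on both was Hpcal4, on the same strand as Nt5c1a, with means of 0.348 CPM with papain against 0.0275 with vehicle on the I3C diet (edgeR adjusted p 0.000363) and 0.204 against 0.0134 CPM on the AhR-poor diet (edgeR adjusted p 0.00177). Its vehicle means lie under the floor of 3 counts, so no fold is given. The gene called lower was Bmp6, near Gm10129, at 0.712 against 1.65 CPM (log2 difference -1.20, SE 0.32).

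Of 11 AhR target genes tested, 0 were called lower in either diet comparison, beside 0% of all genes with vehicle and 0.0993% with papain. None was called higher with vehicle, and 2 were higher with papain, where 7.15% of all genes were, Cyp1a1 (1.67 against 0.235 CPM) and Cyp1b1 (4.64 against 1.66 CPM). The median was -0.05 with vehicle and 0.20 with papain. The fitted log2 difference of Ahr itself was -0.05 (SE 0.14) with vehicle and 0.11 (SE 0.14) with papain.

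Markers of other cell types moved with diet in both treatments, and their part in the result was not tested. With papain, 14 of 18 dermal fibroblast markers were called higher on the AhR-poor diet, beside 7.15% of all genes. Their summed level was 853 to 1298 CPM against 349 to 515 CPM. The summed endothelial markers were 31.3 to 76.1 against 3.88 to 5.42 CPM (9 of 10 called higher), those of monocytes and macrophages 82.7 to 413 against 7.93 to 25.2 CPM (11 of 11), and those of neutrophils 179 to 694 against 129 to 187 CPM (6 of 13). With vehicle, where 1.59% of all genes were called higher, markers of these cells were also called higher on the AhR-poor diet. These were 12 of 18 for fibroblasts (431 to 674 against 312 to 538 CPM), 9 of 10 for endothelial cells (18.7 to 48.1 against 3.22 to 4.97 CPM) and 5 of 11 for monocytes and macrophages (17.3 to 26.2 against 7.24 to 9.76 CPM). Neutrophil markers with vehicle were at 10.8 to 16.05 against 2.96 to 6.15 CPM, with 0 of 13 called. Skeletal muscle markers, of the tissue for which Nt5c1a is known, were summed to 9.16 to 43.3 CPM on the AhR-poor and 6.22 to 8.16 CPM on the I3C diet with papain (7 of 12 called higher). With vehicle their sums were 10.3 to 18.8 against 6.30 to 6.86 CPM (0 of 12 called). Of 13 Schwann cell and neuron markers 2 were called higher with papain and 0 lower, with Nefl at 0. Their sums with papain were nevertheless lower on the AhR-poor diet without overlap, at 103.04 to 110.92 against 113.2 to 129.9 CPM. With vehicle the sums were also lower without overlap, at 103.4 to 112.2 against 112.95 to 172 CPM (0 of 13 called).

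The keratinocyte markers that define the tissue were abundant in all libraries. Of 8 basal markers 0 were called with papain, beside 7.15% (higher) and 0.0993% (lower) of all genes. Their sums were 21457 to 26087 CPM on the AhR-poor and 24491 to 27209 CPM on the I3C diet. Of 12 suprabasal markers 1 was called higher, beside the same 7.15%, with sums of 26503 to 50194 and 38771 to 53841 CPM. In bulk tissue, fewer cells of a type and less RNA per cell cannot be told apart, and this holds for each of the 3 genes.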

How the data were processed

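Footpad epidermal RNA of 16 mice was made into TruSeq Stranded mRNA libraries, and the authors aligned the reads to mm10 with STAR after FastQC. The authors deposited raw counts per gene and library, without normalization. The counting tool, annotation release and strand setting are not given in the sources used here. Every column was matched to a sample by its label, and 0 columns were left unused. Totals were 22500821 to 51844375 counts per library, 21610 identifiers had no count, and 50376 identifiers matched a symbol in GENCODE M21 (GRCm38). Replicate libraries differed by more than sampling noise (chi-square per degree of freedom at least 7.08).

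A minimum of 10 counts over all libraries left 22155 genes, which were fitted in edgeR 4.0.16 (R 4.3.3) with TMM factors (0.937 to 1.07), 1 mean for each of the 4 groups over all 16 libraries, and the robust quasi-likelihood F test. Calls used the study's thresholds, 0.01 for the p adjusted after Benjamini and Hochberg and 1 for the size of the log2 fold change. The SE is the log2 fold change over the square root of F, and 95% intervals use the total degrees of freedom of the fit. Likeness and permutation tests used log2 CPM with a prior count of 2. The floor was 3 counts. Promoter windows are RefSeq sequences of GRCm38.p6, of which 1 of the 3 genes had an entry.

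The 3 genes and the gene lists were chosen with earlier results of these data known. Genes named beside them are relatives, list members called by diet (at most 4 a list, by mean CPM), the nearest neighbours, the 5 most alike, the genes of at least 1 CPM called lower with papain, and those at the edge of the rule. Markers of melanocytes, eccrine glands, Langerhans cells and T cells were counted too (with papain 5 of 8, 1 of 9, 2 of 10 and 1 of 9 called higher, 0 lower, beside 7.15% and 0.0993% of all genes). Langerhans cell sums on the AhR-poor against the I3C diet were 1068 to 1325 against 412 to 906 CPM with papain. With vehicle they were 1023 to 1159 against 391 to 731 CPM. Melanocyte sums were also higher without overlap in both treatments, and eccrine gland and T cell sums overlapped. Alternatives were RLE factors, library size only, scaling to keratinocyte markers, filterByExpr, every gene with at least 1 count, DESeq2 1.42.0, no robust fit, only the 8 libraries compared, other thresholds, and leaving out each library. The sequencing unit of each library (3 units are named) is not given in the sources used here and was not a term. The fits were tested on simulated data. The skin explants, flow cytometry and public data sets of the study were not analysed here.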

Additional observations from a re-analysis of the deposited data

Results flagged for a closer look

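For Gm10129, 2 of the 12 groups of 4 libraries (3 genes in 4 groups) held a library far from its other 3, where chance gives about 1 in 20. Library T111 of the I3C diet with vehicle was low at 0.510 CPM, with a gap to the next library of 0.902 of the group's range. Library T115 of the I3C diet with papain was high at 2.66 CPM, with a gap of 0.859 of the range. The 6 papain groups among the 12 were used to choose the genes, and a high I3C library with papain favours being chosen, so the value of T115 is given as a description. Dsp was also lowest in T111 (4733 CPM) and highest in T115 (7898 CPM) within these groups.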

How the results depend on the processing

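Each count and each fold change of the 3 genes was recomputed under the alternatives. No paired analysis was possible because the groups share no replicate codes. Fold changes of Slit1 and Gm10129 kept their sign in every alternative, and Nt5c1a did so in all but the diet difference with vehicle, which was 0.04 and ranged from -0.61 to 1.29 when 1 library was left out (-0.25, -0.37, -0.01 and -0.61 without T109, T110, T111 and T102). Leaving out 1 library gave 4.01 to 4.94 for the papain response of Nt5c1a on the AhR-poor diet and 5.57 to 7.23 on the I3C diet. Scaling to keratinocyte markers gave 0.77 for the papain response of Slit1 on the AhR-poor diet. Genes called lower with papain numbered 22, and 11 by library size only, 2 with keratinocyte scaling, 70 at an adjusted p below 0.05, 680 with no minimum fold change, and 6 to 34 when 1 library was left out (6 without T104, 9, 10 and 11 without T113, T114 and T115, 34 without T106). With vehicle, genes called lower numbered 0, and 6 with DESeq2, 1 with no robust fit, 5 at an adjusted p below 0.05 and 0 to 2 when 1 library was left out. All genes called by diet with vehicle numbered 352, and 601 with DESeq2, 587 at an adjusted p below 0.05 and 194 to 430 when 1 library was left out (195, 210, 194 and 209 without T108, T109, T110 and T100). With no minimum fold change, 2482 genes were called by diet with papain, 4977 by papain on the AhR-poor diet and 5686 on the I3C diet. The cause of these shifts was not tested, other than the change of threshold itself. Depth limits Nt5c1a with vehicle most, at 10 and 11 counts over 4 libraries each.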
